A study of Caenorhabditis elegans with 6 samples.

Results

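The genes described here encode the mitochondrial respiratory chain of the nematode Caenorhabditis elegans, in whole-animal RNA from 3 Control libraries and 3 libraries of animals treated with HLB01. Nuclear members were taken by their symbol (nuo-, cox-, atp- or ucr- with a number, plus isp-1, cyc-1, gas-1, mev-1, sdha-1, sdhb-1 and sdhd-1), and mitochondrial members were the 12 genes for proteins on the mitochondrial chromosome, MtDNA. The annotation holds 50 such genes, of which 49 had values among the 46778 genes of the table, 37 nuclear and 12 mitochondrial; cox-16 was not analysed here. The labels give HLB01 as a code name without a composition, and the title of the series concerns a root extract of Vicatia thibetica and its effects on ageing. The agent field reads HLB01, HLB02 and HLB03 in the 3 treated libraries, whereas the titles name all of them HLB01. The titles were followed. Under the agent field each treated library would be a separate treatment without a replicate, which the p-values do not allow for. The sources used here do not state strain, stage, dose or exposure time. Whether the replicates came from different cultures is not recorded, and the p-values therefore cover the spread among these libraries, which may be technical.

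The respiratory chain passes electrons from NADH and succinate through complexes I, II, III and IV to oxygen and pumps protons, and complex V, the ATP synthase, uses the proton gradient to make ATP. Complexes I, III, IV and V are built from proteins of both genomes, while complex II is entirely nuclear. In C. elegans the mitochondrial genes lie on the same strand and are transcribed inside the organelle, and mutants of several nuclear members (isp-1, gas-1, mev-1, nuo-6) have an altered lifespan.

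Levels are in TPM, a transcript abundance that the authors divided by transcript length and set to a common total. The number of reads behind each value is unknown. On the first principal component of the tested genes HLB01 replicate 3 had a score of 32.0, and the remaining libraries had -15.3 to -0.57. Summed nuclear ribosomal RNA ranged from 478 to 2615 TPM in Control and from 2046 to 4824 TPM in HLB01, with the highest value also in HLB01 replicate 3. Genes were tested if 3 or more libraries reached 1 TPM; of these 12590 genes, 50 (0.397%) differed between HLB01 and Control at an adjusted p below 0.05, in limma on log2(TPM + 1) with Benjamini-Hochberg adjustment. All 49 members passed the filter on low values.

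No respiratory chain gene passed that test. The 37 nuclear genes lay close to no difference, with a median log2 fold change of 0.01 against 0.00 over all tested genes, and their summed level differed by less than the spread between libraries. The 12 mitochondrial genes had a median of 0.21, with 11 positive and 1 negative value, and their summed level was 1.15 times as high in HLB01. The ratio of the summed mitochondrial to the summed nuclear genes of these sets was above all Control libraries in each HLB01 library.

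**Figure D1:**
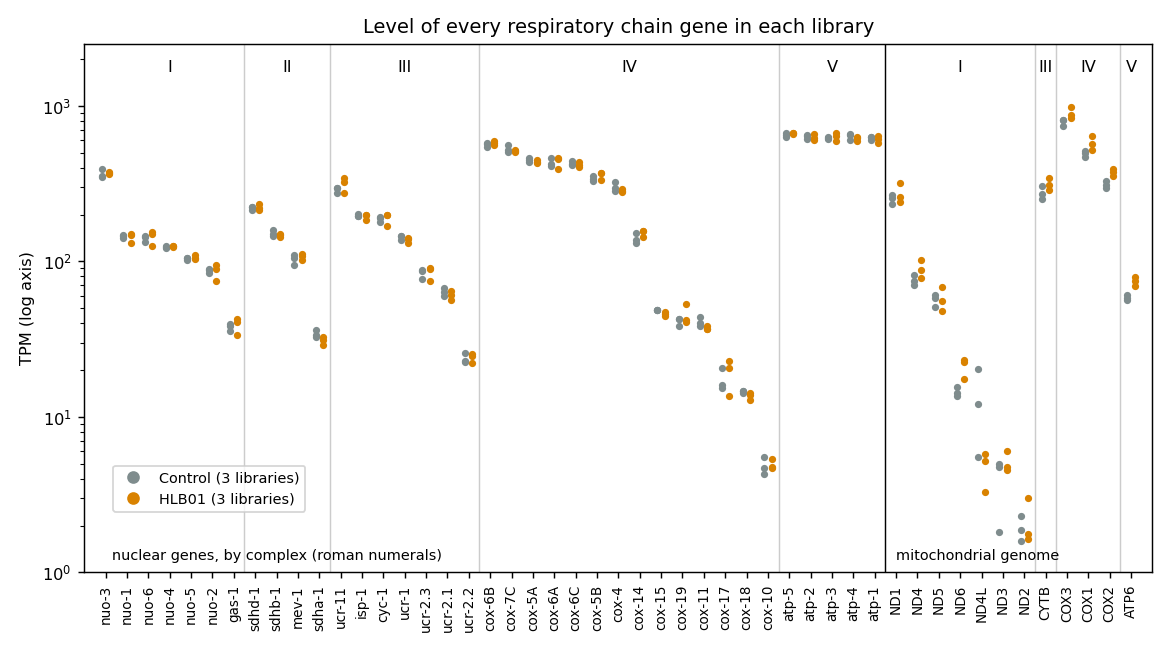
TPM on a log axis for all 49 genes in each library (grey Control, orange HLB01), grouped by genome and by complex. The nuclear ATP synthase genes atp-1 to atp-5 sit at nearly the same level, between 579 and 672 TPM, while the mitochondrial genes span from 1.60 TPM (ND2) to 984 TPM (COX3).

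The level of the nuclear genes differed by complex. The 5 nuclear ATP synthase genes of the symbol rule, atp-1 to atp-5, had means over the 6 libraries between 618 TPM (atp-1, which encodes the alpha subunit) and 657 TPM (atp-5). This is a 1.06-fold range, although their longest transcripts run from 542 to 2031 bases. Subunit genes under other names are not counted here. The 7 structural subunits of cytochrome c oxidase, complex IV, had means from 293 TPM (cox-4) to 571 TPM (cox-6B). Its 7 assembly factors, whose roles are known from yeast and human cells, were lower. They ran from 4.88 TPM for cox-10, a heme farnesyltransferase, to 147 TPM for cox-14. Members of complex I had means from 38.4 to 368 TPM, those of complex II from 32.6 to 222 TPM, and those of complex III from 23.9 to 302 TPM. In both complex I and complex II the lowest member was a core enzyme subunit, gas-1 and sdha-1.

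The mitochondrial genes covered a 415-fold range of means. The 3 oxidase genes COX3, COX1 and COX2, which form the catalytic core of complex IV, led with 844, 534 and 343 TPM, followed by CYTB, the cytochrome b of complex III, with 296 TPM. The single ATP synthase gene, ATP6, had 66.3 TPM. The 7 subunits of NADH dehydrogenase, complex I, ran from 263 TPM for ND1 through 82.4 (ND4), 57.1 (ND5), 17.7 (ND6), 8.71 (ND4L) and 4.47 (ND3) to 2.03 TPM for ND2. COX3 and its neighbour CYTB are adjacent on the genome (positions 5678 to 6449 and 4504 to 5621 of WBcel235 chromosome MtDNA), and ND2 (3389 to 4269), the lowest gene, precedes them. The annotated ends of ND6 and ND4L, of ND1 and ATP6, and of ND3 and ND5 overlap by 1, 2 and 1 bases, so reads across those ends cannot be assigned with certainty. All 22 mitochondrial transfer RNA genes were listed at 0.

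Among the nuclear members, complex I subunits showed no difference that passed the test. The gene nuo-3 had 347.66, 394.1 and 353.97 TPM in Control and 371.87, 363.62 and 374.7 TPM in HLB01. The gene nuo-1, for the NADH-binding flavoprotein subunit, had 146.25, 148.52 and 141.97 TPM in Control and 147.02, 149.37 and 130.48 TPM in HLB01. The groups overlapped for both genes, with log2 fold changes of 0.02 ± 0.05 and -0.04 ± 0.06 (SE, n = 3 each; adjusted p in limma = 0.949 and 0.913). For gas-1, whose product is a core subunit near the ubiquinone site, the values were 39.78, 38.49 and 35.86 TPM in Control and 42.28, 40.5 and 33.65 TPM in HLB01, with both the highest and the lowest in treated animals. The gene nuo-6 was spread in the same manner, with 142.47, 144.53 and 132.83 TPM in Control and 155.0, 149.47 and 126.33 TPM in HLB01. Over the 7 members of this complex the log2 fold changes ran from -0.04 to 0.03.

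Complex II, succinate dehydrogenase, also belongs to the citric acid cycle. Its catalytic flavoprotein gene sdha-1 (WBGene00015391; chromosome X, 8542757 to 8546021) had 36.14, 33.66 and 32.5 TPM in Control and 32.47, 31.43 and 29.11 TPM in HLB01. The HLB01 values lay below the Control values, with 32.5 and 32.47 TPM as the nearest pair, and the log2 fold change of -0.13 ± 0.07 did not pass (adjusted p in limma = 0.675). The iron-sulfur subunit gene sdhb-1 had 158.0, 150.71 and 146.35 TPM in Control and 143.15, 148.51 and 149.25 TPM in HLB01. The membrane anchor genes were flat. For mev-1, a cytochrome b anchor, the values were 109.29, 104.49 and 94.69 TPM in Control against 111.01, 109.02 and 102.16 TPM in HLB01, and for sdhd-1 they were 225.13, 223.92 and 215.2 TPM against 232.42, 221.36 and 214.82 TPM. The log2 fold changes of sdhb-1, mev-1 and sdhd-1 were -0.04 ± 0.04, 0.06 ± 0.06 and 0.01 ± 0.04.

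In complex III, isp-1 encodes the Rieske iron-sulfur protein and cyc-1 encodes cytochrome c1. The gene isp-1 had 196.36, 200.26 and 194.51 TPM in Control and 197.33, 199.67 and 185.17 TPM in HLB01 (log2 fold change -0.02 ± 0.04, adjusted p in limma = 0.919). The gene cyc-1 had 191.19, 194.03 and 179.62 TPM in Control and 198.34, 199.54 and 167.82 TPM in HLB01 (0.00 ± 0.07, adjusted p in limma = 0.997). In both genes the lowest of the 6 values was that of HLB01 replicate 3. The largest positive value of the complex belonged to ucr-11, with 298.18, 295.53 and 273.94 TPM in Control and 326.13, 343.16 and 273.82 TPM in HLB01, where replicates 1 and 2 were above Control and replicate 3 was not (0.11 ± 0.09, adjusted p in limma = 0.795). The core protein gene ucr-1 had 146.55, 145.89 and 137.56 TPM in Control and 131.48, 140.62 and 138.87 TPM in HLB01. The 3 genes for the other core protein, ucr-2.1, ucr-2.2 and ucr-2.3, had different levels, with means of 63.4, 23.8 and 83.7 TPM in Control and 60.8, 24.1 and 85.3 TPM in HLB01. Their log2 fold changes were -0.06 ± 0.07, 0.02 ± 0.08 and 0.02 ± 0.09, and the order of their levels was the same in both groups.

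For complex IV the nuclear subunit with the highest level, cox-6B, had 567.21, 576.29 and 545.22 TPM in Control and 594.93, 581.17 and 558.41 TPM in HLB01 (0.04 ± 0.04). Its annotated span of chromosome III overlaps other expressed genes, on both strands. The subunit gene cox-7C had 520.05, 556.16 and 501.51 TPM in Control and 515.78, 518.51 and 506.6 TPM in HLB01, and its groups overlapped too. For cox-5B, whose knockdown is a standard way to impair the chain in worms, the values were 327.98, 354.76 and 336.88 TPM in Control and 371.36, 369.35 and 332.1 TPM in HLB01. Replicates 1 and 2 of HLB01 were above Control and replicate 3 was within it (0.07 ± 0.06, adjusted p in limma = 0.803).

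The assembly factors of complex IV held the nuclear members with some of the smallest p. Over all 7 of these factors the median log2 fold change was 0.02, with 4 positive and 3 negative. The gene cox-11 (WBGene00010437; chromosome IV, 13244324 to 13247160), for a copper delivery factor, had 39.9, 38.39 and 44.13 TPM in Control and 38.31, 36.5 and 36.6 TPM in HLB01 (-0.13 ± 0.06, adjusted p in limma = 0.673), and its log2 fold change was -0.07 without Control replicate 3. The gene cox-15, for the heme A synthase, had 48.69, 48.63 and 48.48 TPM in Control and 47.39, 45.97 and 44.75 TPM in HLB01 (-0.08 ± 0.04, adjusted p in limma = 0.724). The HLB01 values of both genes lay below all Control values. The gene cox-14 had 137.36, 131.6 and 152.15 TPM in Control and 144.07, 157.74 and 157.25 TPM in HLB01, with an overlap and the opposite sign (0.13 ± 0.07, adjusted p in limma = 0.694). With sdha-1, these made 3 of 37 nuclear genes whose HLB01 values were all below Control, and 0 were all above. Among all tested genes 13.8% did not overlap, 6.99% below and 6.85% above. No nuclear member reached even an unadjusted p below 0.05 in limma, which 8.32% of all tested genes did.

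In complex V, atp-5 had 666.41, 650.79 and 629.16 TPM in Control and 668.78, 668.82 and 657.18 TPM in HLB01 (0.04 ± 0.04). The beta subunit gene atp-2 had 638.03, 652.0 and 609.48 TPM in Control and 618.6, 655.68 and 605.97 TPM in HLB01 (-0.01 ± 0.05). The log2 fold changes of the 5 genes ran from -0.05 to 0.04, with 2 positive and 3 negative.

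How large a difference these data leave room for can be read from the 95% intervals of limma. For 34 of the 37 nuclear genes the whole interval lay within 0.3 of zero on the log2 scale, and for 20 it lay within 0.2, against 46.9% and 24.4% of all tested genes. The nuclear members had a median level of 147 TPM, whereas the tested genes reach down to the filter of 1 TPM. No comparison with genes of similar level was made. The widest interval was that of cox-17, a copper chaperone gene at 17.3 and 18.96 TPM, from -0.36 to 0.56. The estimated log2 fold changes ran from -0.13 (sdha-1) to 0.13 (cox-14), with 19 positive and 18 negative.

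**Figure D2:**
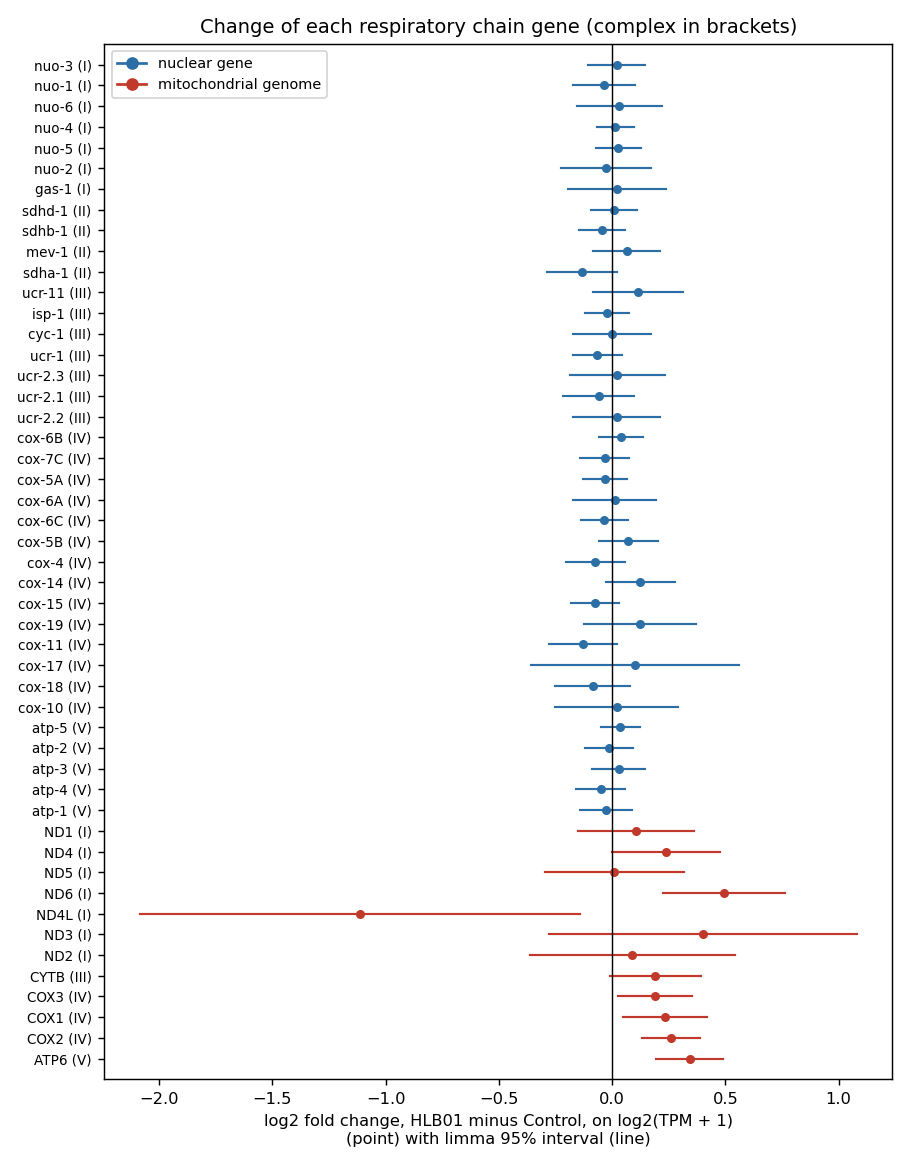
Log2 fold change of each gene, HLB01 minus Control, on the log2(TPM + 1) scale, with the 95% interval from limma; blue for nuclear and red for mitochondrial genes. The nuclear estimates lie between -0.13 and 0.13, whereas 11 of 12 mitochondrial estimates lie above zero, with ND4L at -1.11.

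The mitochondrial oxidase genes COX3 (WBGene00010962), COX1 (WBGene00010964; 7827 to 9428) and COX2 (WBGene00010965; 9649 to 10348) were higher in every HLB01 library than in any Control library, although none passed over all genes tested. COX3 had 809.99, 814.99 and 738.35 TPM in Control and 983.83, 877.54 and 839.56 TPM in HLB01 (log2 fold change 0.19 ± 0.07, adjusted p in limma = 0.518). COX1 had 509.56, 494.46 and 466.52 TPM in Control and 643.88, 568.57 and 521.68 TPM in HLB01 (0.23 ± 0.08, adjusted p in limma = 0.447). In both genes HLB01 replicate 1 had the highest value and replicate 3 the lowest of the treated libraries. COX2 had 307.79, 329.38 and 297.54 TPM in Control and 389.9, 353.85 and 376.61 TPM in HLB01 (0.26 ± 0.05, adjusted p in limma = 0.160). Its lowest treated value, in replicate 2, was above the highest Control value.

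ATP6 (WBGene00010960; MtDNA 2634 to 3235), which encodes the proton channel subunit a of the ATP synthase, had the smallest p of all 49 genes. Its values were 56.09, 60.55 and 58.4 TPM in Control and 74.68, 68.92 and 79.45 TPM in HLB01, so the groups did not overlap. The means were 58.3 ± 2.23 and 74.4 ± 5.27 TPM (SD, n = 3 each), with a log2 fold change of 0.34 ± 0.06 (95% interval 0.20 to 0.49; adjusted p in limma = 0.105). Leaving out each library in turn gave log2 fold changes from 0.29 to 0.40 and adjusted p in limma from 0.120 to 0.304. CYTB had 270.84, 303.49 and 253.62 TPM in Control and 345.2, 311.41 and 288.57 TPM in HLB01 (0.19 ± 0.09, adjusted p in limma = 0.618), and its groups overlapped because HLB01 replicate 3 was below Control replicate 2.

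The mitochondrial genes of complex I varied most among themselves. ND6 (WBGene00010957; MtDNA 113 to 549) had 14.26, 15.66 and 13.61 TPM in Control and 22.37, 17.47 and 23.06 TPM in HLB01, without overlap (0.49 ± 0.11, 95% interval 0.22 to 0.77; adjusted p in limma = 0.209). ND4 had 74.33, 81.67 and 70.17 TPM in Control and 102.02, 87.52 and 78.57 TPM in HLB01 (0.24 ± 0.10, adjusted p in limma = 0.601). ND1 had 255.0, 268.88 and 233.06 TPM in Control and 321.33, 258.34 and 240.4 TPM in HLB01 (0.11 ± 0.11, adjusted p in limma = 0.852). ND4 and ND1 were highest in HLB01 replicate 1, and replicate 3 lay within the Control range for both, as did replicate 2 for ND1. ND5 had 60.84, 58.51 and 50.67 TPM in Control and 68.6, 55.6 and 48.15 TPM in HLB01, with a log2 fold change of 0.01 ± 0.13. Here HLB01 held both the highest and the lowest value.

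The remaining 3 genes had means under 13 TPM in each group and were the least precise. ND4L had 5.49, 20.44 and 12.07 TPM in Control and 5.17, 3.28 and 5.81 TPM in HLB01, and was the only mitochondrial gene with a negative log2 fold change (-1.11 ± 0.41, adjusted p in limma = 0.531). When each library was left out in turn, its log2 fold change ran from -1.57, without Control replicate 1, to -0.71, without Control replicate 2. Control replicate 2 held its highest level. ND3 had 4.95, 1.83 and 4.76 TPM in Control and 4.75, 4.55 and 6.0 TPM in HLB01 (0.40 ± 0.29), and was at 0.05 without Control replicate 2, which held its lowest value. ND2 had 2.3, 1.86 and 1.6 TPM in Control and 3.02, 1.65 and 1.77 TPM in HLB01 (0.09 ± 0.19). Both ribosomal RNA genes of the mitochondrial genome had overlapping groups. The small subunit RNA had 59.05, 48.91 and 45.49 TPM in Control and 67.9, 51.54 and 62.48 TPM in HLB01 (0.24 ± 0.13, adjusted p in limma = 0.695), and the large subunit RNA had 9.22, 8.02 and 6.48 TPM against 9.03, 6.07 and 8.65 TPM (0.00 ± 0.17, adjusted p in limma = 0.997).

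Taken over the mitochondrial set, 5 of 12 genes (COX1, COX2, COX3, ATP6 and ND6) had HLB01 values all above Control and 0 had them all below, where 6.85% and 6.99% of all tested genes did. An unadjusted p below 0.05 in limma was reached by 7 of 12, of which 6 were higher and 1, ND4L, lower, against 8.32% of all tested genes, 3.8% higher and 4.52% lower. That count depended on the library left out: it was 6, 7 and 3 when Control replicates 1, 2 and 3 were each left out, and 4, 5 and 8 for HLB01 replicates 1, 2 and 3. The count of passing genes was 0 of 12 in limma, and it was also 0 without the mean-variance trend and with array weights. These genes come from 1 genome and share their libraries, so they do not count as independent. In whole animals several possible causes of a difference cannot be told apart. Among them are the number of mitochondrial genomes per cell, the share of cells rich in mitochondria and the amount of RNA per cell.

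**Figure D3:**
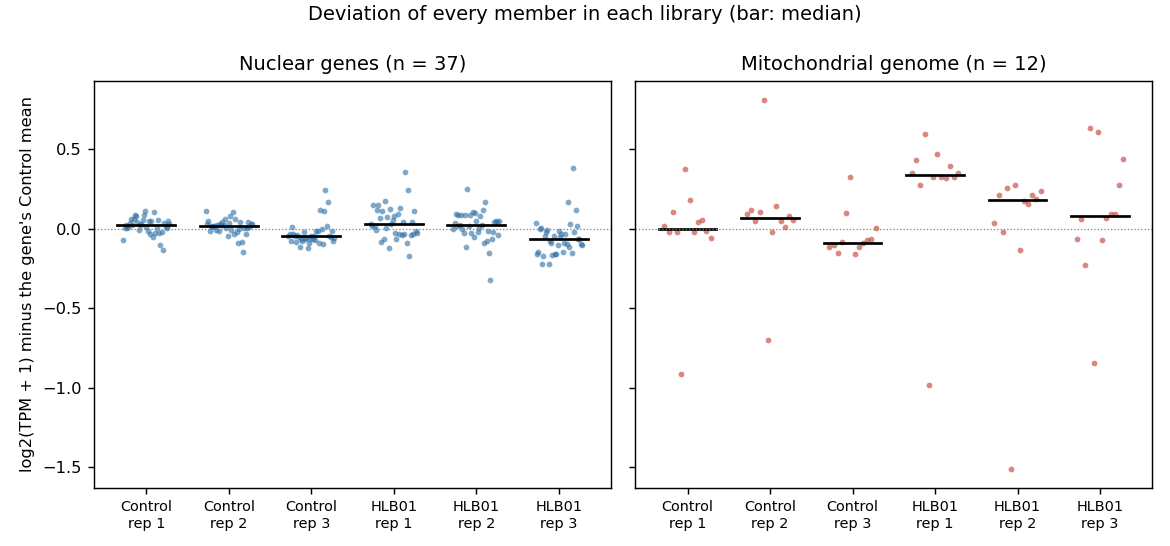
Each point is 1 gene in 1 library, as log2(TPM + 1) minus that gene's mean over the Control libraries, and black bars are medians over the genes. The median of the 12 mitochondrial genes was 0.34, 0.18 and 0.08 in HLB01 replicates 1, 2 and 3, and that of the 37 nuclear genes stayed between -0.06 and 0.03 in all 6 libraries.

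The size of the mitochondrial difference depended on the library. The median deviation from the Control mean was 0.34 in HLB01 replicate 1, 0.18 in replicate 2 and 0.08 in replicate 3, against 0.00, 0.07 and -0.09 in the Control libraries. HLB01 replicate 1 held the highest of the 6 values in 8 of 12 genes, and Control replicate 3 the lowest in 8 of 12. Without HLB01 replicate 1 the log2 fold changes of ND4, COX1, COX3 and CYTB were 0.14, 0.15, 0.13 and 0.12, each reduced by over 1.5 times. In that fit the median log2 fold change was 0.13 and 8 of 12 genes were positive, as ND1, ND2 and ND5 turned negative (-0.02, -0.10 and -0.12), and without HLB01 replicate 3 it was 0.25 with 11 of 12 positive. HLB01 replicate 3 had the lowest value in 1 of 12 mitochondrial genes and the highest in 3. By contrast it had the lowest value in 20 of 37 nuclear genes, and the nuclear median deviation was -0.06 there and -0.05 in Control replicate 3.

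The gene sets were then set against each other within each library. The nuclear genes summed to 9129, 9187 and 8727 TPM in Control and 9199, 9232 and 8647 TPM in HLB01, with means of 9014 ± 251 and 9026 ± 329 TPM (SD, n = 3 each). The mitochondrial genes summed to 2371, 2452 and 2200.4 TPM in Control and 2965, 2609 and 2510 TPM in HLB01, with means of 2341 ± 128 and 2694 ± 239 TPM. The nuclear sums overlapped and the mitochondrial sums did not. The ratio of the mitochondrial to the nuclear sum was 0.260, 0.267 and 0.252 in Control and 0.322, 0.283 and 0.290 in HLB01, so all treated libraries were above all Control libraries, by 0.20 on average on the log2 scale. The difference ranged from 0.14, when HLB01 replicate 1 was left out, to 0.24, when HLB01 replicate 2 was. No test was made on these sums, since the genes were chosen with results of these data known.

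**Figure D4:**
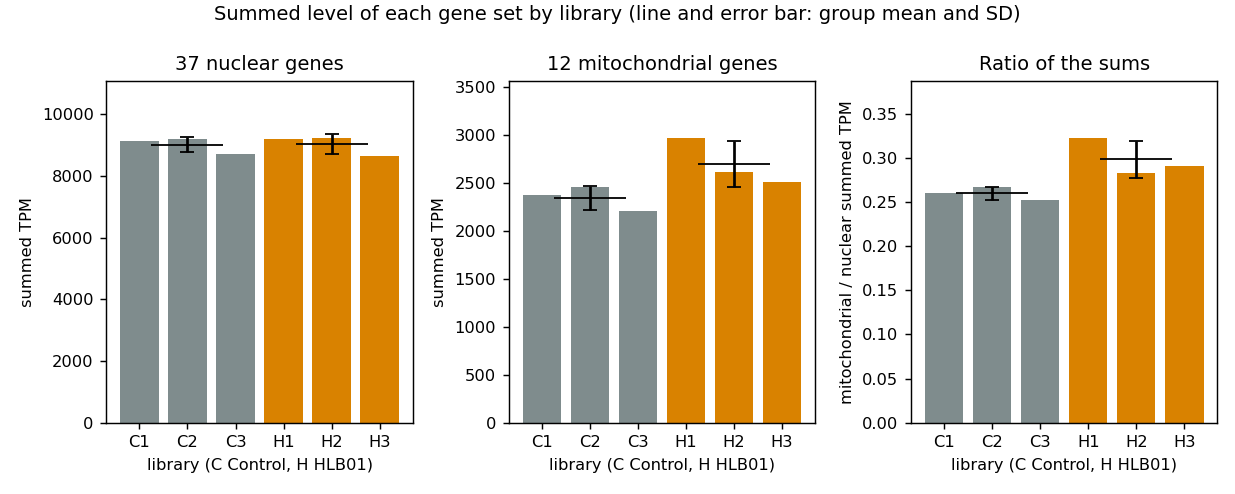
Bars give the summed TPM of the 37 nuclear genes (left) and the 12 mitochondrial genes (middle) and the ratio of these sums (right) in each library (C1 to C3 Control, H1 to H3 HLB01), with group means and SD. The ratio is 0.252 to 0.267 in Control and 0.283 to 0.322 in HLB01.

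By complex, the same ratio separated the groups in complexes IV and V. Complex IV counts 14 nuclear genes, including its 7 assembly factors. Its ratio was 0.482, 0.481 and 0.461 in Control and 0.593, 0.528 and 0.538 in HLB01. For complex V, with ATP6 against 5 nuclear genes, it was 0.0174, 0.0188 and 0.0191 in Control and 0.0233, 0.0214 and 0.0262 in HLB01. In complex I the ratio was 0.419, 0.431 and 0.395 in Control and 0.507, 0.417 and 0.417 in HLB01, where only replicate 1 was above Control. It counts only the 7 nuclear genes of the symbol rule, with a mean summed level of 1004 TPM in Control. Another 25 nuclear complex I genes, with the symbol stem ndu, summed to a Control mean of 4620 TPM and are left out. In complex III, with CYTB against 7 nuclear genes, it was 0.268, 0.301 and 0.268 in Control and 0.334, 0.294 and 0.314 in HLB01, with replicate 2 inside the Control range. Whether the complexes differ from each other in this was not tested.

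Shares within the mitochondrial transcripts overlapped between the groups for 11 of 12 genes. COX3 made up 33.7% ± 0.46 of their summed TPM in Control and 33.4% ± 0.23 in HLB01 (SD, n = 3 each), COX1 20.95% ± 0.69 and 21.4% ± 0.56, and CYTB 11.8% ± 0.53 and 11.7% ± 0.22. The share of ND6 was 0.601%, 0.639% and 0.619% in Control and 0.754%, 0.670% and 0.919% in HLB01, without overlap. The shares of ND4L, with means of 0.538% and 0.177%, overlapped only barely, at 0.2315% in Control replicate 1 and 0.23151% in HLB01 replicate 3. In TPM, 13.8% of all tested genes did not overlap.

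Genes around the respiratory chain, in 7 lists fixed by name, held 64 tested genes, and 0 of them passed in limma, with 1 (1.56%) at an unadjusted p below 0.05, where 0.397% and 8.32% of all tested genes did so. That gene was hmg-5, of the list for mitochondrial genome maintenance and transcription, which encodes the worm relative of the mitochondrial DNA packaging factor TFAM. It had 116.35, 117.1 and 110.99 TPM in Control and 126.69, 118.41 and 127.49 TPM in HLB01 (0.11 ± 0.05, adjusted p in limma = 0.599). All treated values lay above Control, as they did for 6.85% of all tested genes. The median log2 fold changes were 0.04 for the 4 tested genes of that list, 0.02 for 10 genes of electron carriers and ubiquinone synthesis, 0.02 for 12 subunit genes under other names and 0.03 for 7 assembly factors under other names. They were -0.01 for 7 ADP/ATP carrier and ATPase inhibitor genes, -0.03 for 18 citric acid cycle genes and 0.04 for 6 prohibitin and inner membrane protease genes. The smallest p of these lists belonged to coq-6, nduf-7, nuaf-3, mai-1, idhg-1 and clpp-1, with adjusted p in limma of 0.718, 0.641, 0.703, 0.695, 0.726 and 0.870.

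Tissue markers were compared in the same libraries. Body wall muscle, a tissue rich in mitochondria, was followed by 12 marker genes, of which 10 had a negative log2 fold change (median -0.15) and 0 passed. An unadjusted p below 0.05 was reached by 1 of these 12 genes, against 8.32% of all tested genes. Their summed level was 941, 890.1 and 921 TPM in Control and 757, 784 and 962 TPM in HLB01, and the groups overlapped. Intestinal markers summed to 3705, 3765 and 4093 TPM in Control and 3085, 3322 and 3572 TPM in HLB01, so every HLB01 library was below every Control library. Of the 12 intestinal genes 9 were negative (median -0.07) and 0 passed, while 4 were lower and 1 higher at an unadjusted p below 0.05, and 4 lay below Control and 2 above it without overlap, against 8.32% and 13.8% of all tested genes. The smallest p was that of ftn-1, a ferritin gene, at 70.1 ± 4.06 and 49.1 ± 6.43 TPM (-0.51 ± 0.10, adjusted p in limma = 0.126). Sperm markers summed to 371 to 437 TPM in Control and 272 to 444 TPM in HLB01, with a median of -0.19 over 17 tested genes, and ssp-9, with their smallest p, was listed at 0 in HLB01 replicate 1. Oocyte and germline markers had a median of 0.02 over 18 genes, neuronal markers -0.03 over 9 and epidermal markers 0.07 over 4, with 0 passing in each. Smallest p in these lists and in muscle were those of mex-3, rab-3, col-19 and act-4, with adjusted p in limma of 0.673, 0.632, 0.830 and 0.350. The part of tissue makeup, of ribosomal RNA content and of HLB01 replicate 1 in the mitochondrial values was not tested.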

How the data were processed

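Per the labels' protocols, worm RNA was isolated with TRIzol, cleared of DNA with DNase I and made into Illumina libraries. The authors deposited TPM values per gene and library, rounded to 2 decimals; fastp, HISAT and RSEM with build WBcel235 stand in the submitters' processing notes, without versions, annotation release or strand setting. TPM carries no read depth and is a share of a fixed total.

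Symbols and positions came from Ensembl release 115 of WBcel235. Mitochondrial genes took the symbols of RefSeq's WBcel235 table where the positions overlapped by over 90% of the longer gene. Values were tested as log2(TPM + 1) with limma 3.58.1 in R 4.3.3, with a mean-variance trend, two-sided, on the 12590 genes that reached 1 TPM in 3 or more libraries, adjusted by Benjamini-Hochberg over all of them at 0.05, and the test was checked on simulated data. Figures and sums were made in Python 3.11.15. Members and the 13 gene lists were chosen with earlier results of these data known. Of 146 list names, 1 matched no gene.

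Named genes are all mitochondrial members and complex II, the 2 nuclear members of highest mean in each other complex, the 5 nuclear members with the smallest p, isp-1, gas-1, mev-1, cyc-1, nuo-6, cox-5B, the ucr-2 genes, both mitochondrial ribosomal RNAs and, from each list, the gene with the smallest p. The gene cox-17 was named after its values were seen, as were lowest and highest members of a complex. The labels do not state whether replicate numbers pair the libraries. Correlations of deviations between same-numbered libraries were -0.01, 0.04 and 0.13, and those between other libraries ran from -0.16 to 0.14. These values do not settle whether the libraries were paired, so the replicate block was fitted as an alternative. Alternatives were other pseudocounts, filters and limma models, quantile normalization, rescaling, a replicate block and leaving out each library.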

Additional observations from a re-analysis of the deposited data

How the results depend on the processing

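No nuclear and no mitochondrial member passed under any of the 15 alternatives fitted. Over all genes, 50 genes passed in the reported fit, 22 with no filter on low values, 27 without the mean-variance trend, 80 with array weights and 19 to 32 when any 1 library was left out. With the replicate block it was 48 genes, and 0 members. The median log2 fold change of the mitochondrial genes was 0.20 to 0.23 under the other models, filters and scalings and 0.13 to 0.25 over the fits that left out 1 library, and that of the nuclear genes was 0.00 to 0.01 and -0.03 to 0.02. The log2 difference in the ratio of the summed levels was 0.20, and 0.14 to 0.24 when 1 library was left out. It was 0.21 without the most abundant gene of each set and 0.12 as a difference of mean log2(TPM + 1), which weighs ND4L as much as COX3. Rescaling without mitochondrial and ribosomal RNA left the summed ratio of HLB01 to Control at 1.15 for the mitochondrial and 1.00 for the nuclear genes. This rescaling could change little. In HLB01 replicate 3, with the most ribosomal RNA, the removed nuclear ribosomal and mitochondrial RNA were 4824 and 2581 of 996755 TPM. Depth is unknown, and among the mitochondrial genes ND4L, ND3 and ND2, with the lowest levels, had the widest intervals.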

Other observations

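Other nuclear genes of complex I carry symbols with the stem ndu, and 25 of them had values; they were picked by name after the annotation had been read. None of the 25 passed in limma or reached an unadjusted p below 0.05, where 0.397% and 8.32% of all tested genes did. Their median log2 fold change was 0.02, with 13 positive and 12 negative. Their summed level was 4673, 4667 and 4520.1 TPM in Control and 4893, 4684 and 4472 TPM in HLB01, with the highest value in HLB01 replicate 1 and the lowest in HLB01 replicate 3, as for the lowest of the nuclear sums above.

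The mitochondrial neighbours ND6 and ND4L, whose annotated ends share 1 base, had log2 fold changes of opposite sign, 0.49 and -1.11. Their summed level was 19.75, 36.1 and 25.68 TPM in Control and 27.54, 20.75 and 28.87 TPM in HLB01, and the groups overlapped. Neither difference passed over all genes tested, and the pair was picked after its values were seen.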
